A study of Mus musculus with 11 samples.

Results

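LSKs carrying a p53R248W allele beside an intact allele were compared with LSKs that lack p53, to read at which genes the transcript level differs between the 2 genotypes. p53R248W/+ cells hold the mutant protein as well as the intact one, and the parts of the 2 alleles cannot be told apart. LSKs are the Lin-Sca1+Kit+ fraction of mouse bone marrow, which holds hematopoietic stem cells (HSCs) and multipotent progenitors. The comparison took the 3 p53R248W/+ and the 3 p53-/- RNA-seq libraries, which are 6 of the 9 LSK RNA-seq libraries and of the 11 samples of the series, and it covered every gene in the deposited table. The 3 p53+/+ libraries are given as a reference, and they entered the same fit.

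p53, the product of Trp53, is a transcription factor that cells stabilise after DNA damage and other stress. It switches on genes that stop the cell cycle, such as Cdkn1a, genes that promote apoptosis, and genes such as Mdm2 that feed back to limit p53 itself. Many genes of mitosis are repressed indirectly, through p21 (the Cdkn1a product) and the DREAM repressor complex, and in bone marrow p53 is known for holding HSCs in quiescence.

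The genotypes were p53R248W/+, p53-/-, and p53+/+, all with a C57BL/6 strain background. In the study's methods, the p53+/+ mice carry the humanized p53 knock-in allele (HUPKI), whose protein is mostly human p53 between mouse ends, and the R248W change was made in that allele, so the mutant protein is human and is made from the mouse Trp53 promoter. Both of these lines had been backcrossed to C57BL6, and the mice were young and free of tumours. No drug or irradiation is named for these libraries. The labels do not say whether each library came from a separate mouse, so every p-value measures the spread between these libraries, which may be technical. The sample titles name the p53-/- libraries in another style than those of the other genotypes, and whether they were handled apart is not given.

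Total counts were 20424696 to 29750702 in the p53R248W/+ libraries and 18638196 to 22503595 in the p53-/- libraries. The sorted phenotype was present in all 6: Ly6a, which encodes Sca1, ran from 161 to 444 CPM (counts scaled to library size) and Kit from 427 to 807, while of the lineage antigens Cd8a stayed between 0 and 1.33, Ms4a1 between 0 and 3.02, Cd4 between 3.84 and 9.20, and Itgam between 16.5 and 80.0 CPM. Sex-linked transcripts were not balanced. Y-linked genes summed to at most 0.0491 CPM in the p53-/- libraries and to 0.216 in p53R248W/+ replicate 1, but to 69.8 in replicate 2 and 184 in replicate 3, and replicate 2 also held 149 CPM of Xist. p53R248W/+ replicate 2 stood apart in transcripts of maturing neutrophils such as Ngp, and replicate 1 stood apart as the deepest library, as the one nearest to p53-/- at many genes, and in its levels by gene length. By the gene length in the deposited table, it deviated from the mean of the 9 libraries by a median of 0.46 log2 CPM in the decile of shortest genes and −0.38 in the decile of longest genes, while replicates 2 and 3 stood at −0.14 and −0.10 in the shortest and at 0.24 and 0.34 in the longest. In the longest decile the p53-/- libraries stood at −0.24, −0.22, and 0.066. The part of sex, of the deeper library, of gene length, and of the neutrophil transcripts in the results was not tested.

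Levels are in CPM after TMM scaling of the library sizes, and a log2 fold change is p53R248W/+ over p53-/- unless another pair is named, so that a positive value means a higher level in p53R248W/+. Errors of fold changes are SEs worked back from the test statistic of the fit to all 9 libraries, with 3 libraries in each genotype. A gene is said to be called where edgeR's quasi-likelihood test gave a Benjamini-Hochberg adjusted p below 0.05 over the 12625 genes tested. In bulk RNA, fewer cells of a type and less RNA per cell cannot be told apart.

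Of the genes tested, 295 (2.34%) were called higher and 139 (1.1%) lower in p53R248W/+, 434 in all (3.44%). At all 434 the p53R248W/+ and p53-/- libraries did not overlap. Over all genes tested, 12.1% had no overlap with p53R248W/+ higher and 12% with p53-/- higher. The same fit called 1 gene (0.00792%) between p53R248W/+ and p53+/+ and 442 (3.5%) between p53-/- and p53+/+. These comparisons share libraries, so each one's own values are set side by side. At the 295 higher genes the median log2 fold change was 1.33 over p53-/- (quartiles 1.04 to 1.82), 0.06 over p53+/+ (quartiles −0.04 to 0.18), and −1.23 for p53-/- over p53+/+. At the 139 lower genes the medians were −1.03, −0.09, and 0.90 in the same order. Thus at most of these genes the p53R248W/+ level lay near the p53+/+ level: 5 of the higher and 9 of the lower genes were more than 2-fold from it. For the higher genes this share was slightly below that of all genes tested. For the lower genes it was above that of all genes, so these departed from p53+/+ more often than genes in general. Over all genes the median was 0.02, and the quartiles of p53R248W/+ over p53+/+ were −0.12 to 0.14. At 233 of the higher and 76 of the lower genes the difference from p53-/- was at least 2-fold.

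The number of calls depended on single libraries. Without p53R248W/+ replicate 1 there were 1559 calls, and without replicate 2 or replicate 3 there were 78 and 77. Leaving out p53-/- replicate 1, 2, or 3 gave 164, 100, and 102 calls, and leaving out a p53+/+ library gave 312 to 380. Replicate 1 was the p53R248W/+ library closest to p53-/- at 193 of the 295 higher and 64 of the 139 lower genes. All 434 calls kept their direction without each of the 9 libraries in turn, and 55 of them, 49 higher and 6 lower, were called every time. A gene described as called in all 9 is one of these 55. In a fit to the 6 libraries without Y-linked reads, where p53R248W/+ replicate 1 stands alone for its genotype and is assumed to vary like the others, all 76 genes called by the rule for named genes kept their direction and 16 were still called: 2610507I01Rik, AA465934, Fos, Klf2, F13a1, Kif4, Trib2, Trim58, Cdkn1a, Smc4, Irf8, Ly86, Mpo, Ms4a6c, Jun, and Zfp36. The other 60 were not called there, and the 12 whose log2 fold change moved by over 1.5 times are given with that value where they are described.

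**Figure D1:**
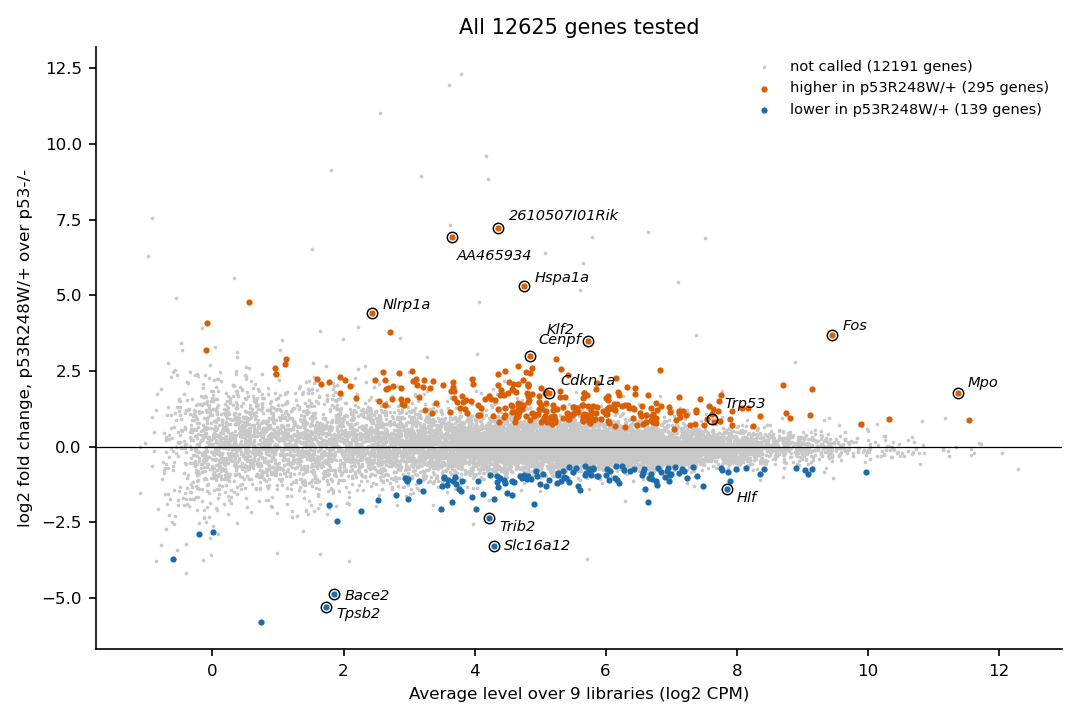
Log2 fold change of p53R248W/+ over p53-/- (vertical axis) against the average level over 9 libraries in log2 CPM (horizontal axis) for the 12625 genes tested. Orange points are the 295 genes called higher, blue points the 139 called lower, gray points the rest, and circles mark named genes, of which Trp53 was not called.

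The targeted gene was measured first. Trp53 (chromosome 11, 69580359 to 69591873 in GRCm38) stood at 219, 240.5, and 235 CPM in p53R248W/+ and at 129, 127, and 112 CPM in p53-/-. Each p53R248W/+ library was above each p53-/- library, and the p53+/+ libraries, at 125, 207, and 376 CPM, ran from within the p53-/- range to above the p53R248W/+ range. The log2 fold change was 0.92 ± 0.31 (edgeR's quasi-likelihood test, adjusted p = 0.113), short of the threshold. The count covers the whole gene, so transcript left beside a deletion is counted too, and how many reads of the human stretch were assigned to the mouse gene was not tested.

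Of the p53 target genes, Cdkn1a, whose product p21 inhibits cyclin-dependent kinases, was the single one called. It stood at 52.1, 37.7, and 35.7 CPM in p53R248W/+, at 17.8, 8.27, and 10.9 in p53-/-, and at 67.0, 44.0, and 43.6 in p53+/+. The p53R248W/+ range lay wholly above the p53-/- range and overlapped the p53+/+ range. The log2 fold change was 1.76 ± 0.30 (adjusted p = 0.0126); it ran from 1.54 to 2.10 without each library in turn and was called in 7 of those 9 fits, the 2 exceptions being those without p53-/- replicate 2 or 3 (highest adjusted p = 0.0592). In the libraries without Y-linked reads it was 2.07 (adjusted p = 0.0360).

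The other 10 arrest targets tested were not called, so 1 of 11 (9.09%, against 3.44% of all genes) was called, and the median of the list was 0.59. With 3.44% of all genes called, 0 calls in the short p53 lists that follow is close to the share of all genes. DESeq2, run as an alternative, called 3 of the 11 higher and 1 lower. Ptprv, a p53-induced phosphatase gene, had 0.647, 3.61, and 4.34 CPM against 1.03, 0.0904, and 0.638 (log2 fold change 2.29 ± 0.79, adjusted p = 0.127), and Btg2, an antiproliferative gene, had 279, 93.4, and 188 against 91.9, 94.2, and 62.9 (log2 fold change 1.17 ± 0.38, adjusted p = 0.107). Gtse1 stood at 0.59, Plk2 at 0.91, and Gadd45a at 0.05. Tob1, another antiproliferative gene, lay the other way, with 31.8, 20.5, and 25.1 CPM against 55.1, 55.5, and 43.1 (log2 fold change −0.99 ± 0.27, adjusted p = 0.0621).

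None of the 11 feedback genes, among which Trp53 is counted, was called by edgeR's quasi-likelihood test, and their median was −0.21; 3 had an unadjusted p below 0.05, and DESeq2 called 1. Mdm2, the ubiquitin ligase that degrades p53, had 67.5, 70.8, and 75.0 CPM in p53R248W/+ and 86.4, 74.7, and 72.9 in p53-/-, overlapping ranges with a log2 fold change of −0.13 ± 0.16 (adjusted p = 0.681). Ccng1 stood at −0.21, Zmat3 at −0.41, Ppm1d, a phosphatase that acts on p53, at 0.30, and Phlda3 at 0.21. Pml and Trp53inp1 had −0.60 and −0.60 (adjusted p = 0.132 and 0.189). At the transcript level Cdkn1a thus differed by more than the spread between libraries, whereas no difference at Mdm2 was detectable.

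Neither the 16 apoptosis targets nor the 18 DNA repair and metabolism targets held a call in edgeR's quasi-likelihood test, with medians of 0.09 and −0.09. At an unadjusted p below 0.05 there were 2 and 3, and DESeq2 called 2 in each list. Bax, which permeabilizes mitochondria, had 77.0, 70.8, and 68.2 CPM against 54.7, 61.2, and 46.5 (log2 fold change 0.41 ± 0.19, adjusted p = 0.247). Pidd1, a death-domain gene, stood at 1.25 ± 0.36 (adjusted p = 0.0723), Fas, a death receptor, at −0.96, and the BH3-only genes Bbc3 and Pmaip1 at −0.25 and −0.24. Among the repair genes Ercc5, an endonuclease of nucleotide excision repair, had 10.6, 14.7, and 16.5 CPM against 8.98, 7.23, and 5.84 (log2 fold change 0.92 ± 0.26, adjusted p = 0.0747). Sesn1, a stress-response gene that limits mTORC1, had 247, 239.5, and 254 against 417, 336, and 410.0 CPM, with no overlap and the higher level in p53-/- (log2 fold change −0.65 ± 0.16, adjusted p = 0.0509). Ddb2 and Xpc, which recognise DNA lesions, stood at −0.26 and 0.40.

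The 9 genes listed for HSC quiescence under p53 held no call in edgeR's quasi-likelihood test either, and their median was −0.10; 5 had an unadjusted p below 0.05, and DESeq2 called 3. Ndn, which encodes the growth suppressor necdin, had 17.0, 16.1, and 12.3 CPM in p53R248W/+ and 22.5, 37.1, and 22.8 in p53-/- (log2 fold change −0.86 ± 0.26, adjusted p = 0.0915). Txnip stood at −1.05, Cdkn1c at −0.67, and Gfi1, a zinc-finger repressor, at −0.35. Egr1 had 527, 67.1, and 290.4 CPM against 61.6, 98.8, and 84.5, so that replicate 2 fell within the p53-/- range (log2 fold change 1.85 ± 0.68, adjusted p = 0.147).

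**Figure D2:**
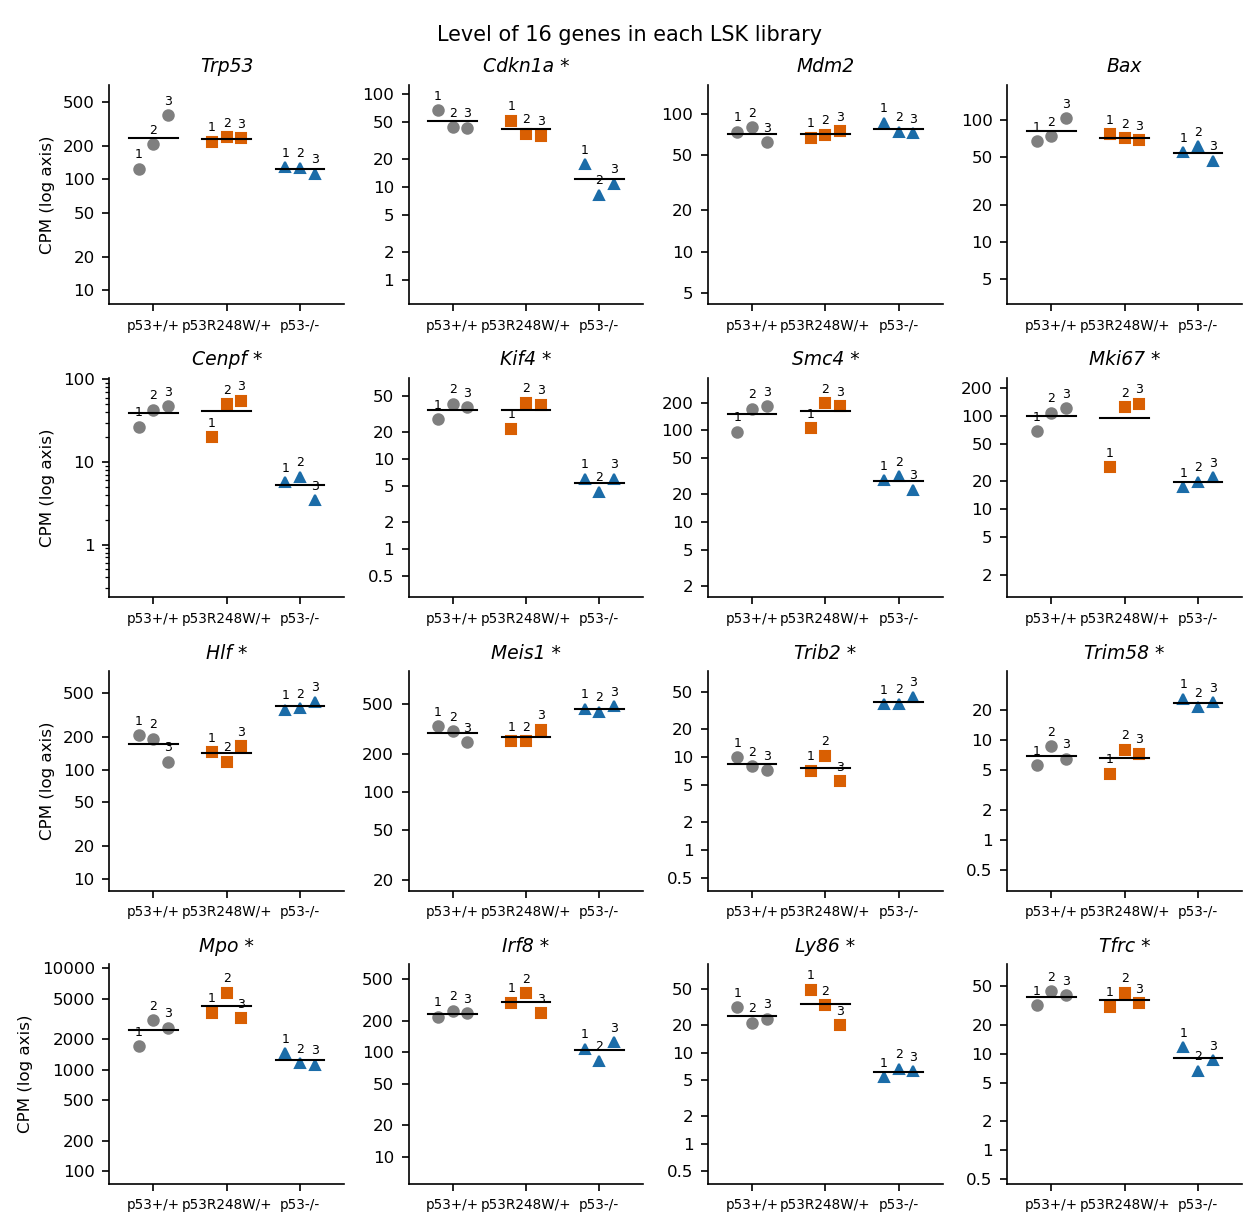
CPM on log axes of 16 genes in the 3 p53+/+ (gray circles), 3 p53R248W/+ (orange squares), and 3 p53-/- libraries (blue triangles), with replicate numbers, group means as bars, and an asterisk at each gene called between p53R248W/+ and p53-/-. Cdkn1a sits at a mean of 41.8 ± 8.97 CPM (SD, n = 3) in p53R248W/+ and 12.3 ± 4.91 CPM (SD, n = 3) in p53-/-, Mdm2 overlaps, and replicate 1 of p53R248W/+ is the lowest of its group at Cenpf, Kif4, Smc4, and Mki67.

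Genes of G2 phase and mitosis made up the list with the most calls. Of 66 tested, 21 (31.8%, against 2.34% of all genes) were called higher in p53R248W/+ and none lower in edgeR's quasi-likelihood test, 64 had a positive log2 fold change, and the median was 0.86 against 0.02 over all genes. At an unadjusted p below 0.05 there were 52 higher and 0 lower, and DESeq2 called 39 higher and 0 lower. Their summed level was 5453, 6021, and 5886 CPM in p53R248W/+, 4256, 2994, and 2330 in p53-/-, and 5016, 5543, and 5967 in p53+/+, so the p53-/- libraries lay below both other genotypes. The median was 0.06 for p53R248W/+ over p53+/+ and −0.84 for p53-/- over p53+/+.

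The genes called have roles in chromosome structure, kinetochores, spindle motors, and cytokinesis. Cenpf, a large kinetochore-associated protein, had 20.1, 50.2, and 55.1 CPM in p53R248W/+ and 5.71, 6.60, and 3.44 CPM in p53-/- (log2 fold change 2.99 ± 0.40, adjusted p = 0.00387). Smc4, a core subunit of condensin, had 105, 197, and 184 against 28.6, 31.8, and 22.6 (log2 fold change 2.55 ± 0.30, adjusted p = 0.00252), and Smc2, its partner, stood at 1.95. At both Cenpf and Smc4 replicate 1 was the lowest p53R248W/+ library and still lay above all p53-/- libraries. The kinesins Kif4 (log2 fold change 2.67 ± 0.29, adjusted p = 0.00207), Kif20b (2.60), Kif15 (2.47), Kif20a (1.76), Kif11 (1.70), and Kif2c (1.25) were higher, as were the kinetochore genes Cenpe (2.19), Cenph (1.24), Knstrn (1.12), and Ndc80 (0.99). Anln, which encodes the contractile-ring protein anillin, stood at 1.79, Aspm, a spindle-pole gene, at 1.70, and Top2a, the topoisomerase that untangles chromosomes, at 1.72 ± 0.31 (adjusted p = 0.0183). The remaining calls were Dlgap5 (2.03), Hmmr (1.95), Ckap2l (1.36), Cdca3 (1.10), and Mki67, the proliferation marker Ki-67.

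Mki67 rested on p53R248W/+ replicates 2 and 3. It had 28.2, 124, and 134 CPM in p53R248W/+ and 17.1, 19.7, and 22 in p53-/- (log2 fold change 2.28 ± 0.46, adjusted p = 0.0253), and replicate 1 lay far closer to the p53-/- libraries than to the other two. It was called in 4 of the 9 fits that left out a library, and in the libraries without Y-linked reads it stood at 0.51 (adjusted p = 0.484). Cenpf, Kif4, Kif20b, Kif15, Smc4, Smc2, Cenpe, Anln, Dlgap5, and Knstrn were called in all 9.

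Regulators at the centre of mitotic entry were positive without passing the test. Cdk1, the mitotic kinase, had 215, 142, and 137 CPM against 121, 114, and 69.8 (log2 fold change 0.70 ± 0.25, adjusted p = 0.131), and its partner Ccnb1 stood at 0.76. The kinases Plk1, Aurka, and Aurkb stood at 0.77, 0.42, and 0.60, and Cdc20, an activator of the anaphase-promoting complex, at 0.72. Pttg1 (−0.05) and Bub3 (−0.03) were the 2 members with a negative value.

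The count of 21 depended on the libraries in the fit. Without p53R248W/+ replicate 1 or p53-/- replicate 1 it was 32 and 37, without p53R248W/+ replicate 2 or 3 it was 11 and 10, and without p53-/- replicate 2 or 3 it was 10 in each case. With a covariate for the Y-linked level it was 11, and in the libraries without Y-linked reads 2, Smc4 (1.90, adjusted p = 0.0293) and Kif4 (1.98, adjusted p = 0.0300). There Cenpf stood at 1.91, Cenpe at 1.23, Kif11 at 1.00, Aspm at 1.12, and Ckap2l at 0.61, none of them called. The median of the list stayed between 0.69 and 1.16 without each library in turn.

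Promoters of this list share 2 short elements: TTTGAA, the core of the cell cycle genes homology region through which the DREAM complex represses mitotic genes, and CCAAT, the box bound by NF-Y. Both were searched on both strands in RefSeq windows from 250 bases before to 50 bases after each start (GRCm38.p6), and the letters of the 2 motifs do not overlap each other. TTTGAA was in 71.2% of the 59 windows of the list (39 of the 56 genes with a window) and in 12.2% of all 12647 windows, CCAAT in 72.9% against 37.6%, and both together in 59.3% against 4.98%. Of the called members with a window, 15 of 18 held TTTGAA, and of those not called 24 of 38 did. CCAAT was in 12 of the 18 called and 28 of the 38 not called. Both together were in 10 of the 18 and 22 of the 38. The 110 bases before the start are printed 5′ to 3′ in the direction of the gene. They are given for 3 called genes (Top2a, Kif11, and Ckap2l) and 2 that were not called (Cdc20 and Cdk1). Only stretches that hold both elements were eligible, so the elements in those printed follow from that choice. Capitals mark TTTGAA or its reverse complement TTCAAA and CCAAT or its reverse complement ATTGG. In that order the stretches lie at chr11:99024190-99024299 (minus strand), chr19:37376272-37376381 (plus), chr2:129297213-129297322 (minus), chr4:118437344-118437453 (minus), and chr10:69352913-69353022 (minus).
Top2a: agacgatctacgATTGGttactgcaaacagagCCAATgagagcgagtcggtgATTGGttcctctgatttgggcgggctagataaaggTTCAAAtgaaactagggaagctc
Kif11: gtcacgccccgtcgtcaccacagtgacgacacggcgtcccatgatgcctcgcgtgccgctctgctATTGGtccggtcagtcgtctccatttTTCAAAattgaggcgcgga
Ckap2l: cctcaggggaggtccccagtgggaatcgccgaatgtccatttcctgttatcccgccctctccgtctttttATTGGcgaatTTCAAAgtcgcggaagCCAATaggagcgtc
Cdc20: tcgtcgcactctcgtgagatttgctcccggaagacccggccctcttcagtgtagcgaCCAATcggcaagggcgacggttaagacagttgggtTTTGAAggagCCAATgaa
Cdk1: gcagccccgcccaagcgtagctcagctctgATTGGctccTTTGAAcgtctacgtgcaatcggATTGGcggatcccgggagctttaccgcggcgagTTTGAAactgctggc
A match of letters describes the window, and does not show that a factor was bound in these cells. In p53-/- both Cdkn1a (log2 fold change −2.07 over p53+/+) and the list (median −0.84 over p53+/+) were lower. The part of p21 and DREAM in these values was not tested.

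Genes of G1 and S phase were called at a share near that of all genes, although most had a positive value. Of 46 tested, Pola1, the catalytic subunit of the polymerase that primes replication, was called higher (log2 fold change 1.27 ± 0.25, adjusted p = 0.0234). This is 2.17%, against 2.34% of all genes. Pola1 was called in 5 of the 9 and stood at 1.08 in the libraries without Y-linked reads. A positive value was found at 41 of the 46, against 6521 of the 12625 genes tested, and the median was 0.21 against 0.02. The summed level of the list was 9721 to 11016 CPM in p53R248W/+ and 8125 to 10318 CPM in p53-/-, ranges that overlap. TTTGAA was in 14.9% of the windows of these genes.

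**Figure D3:**
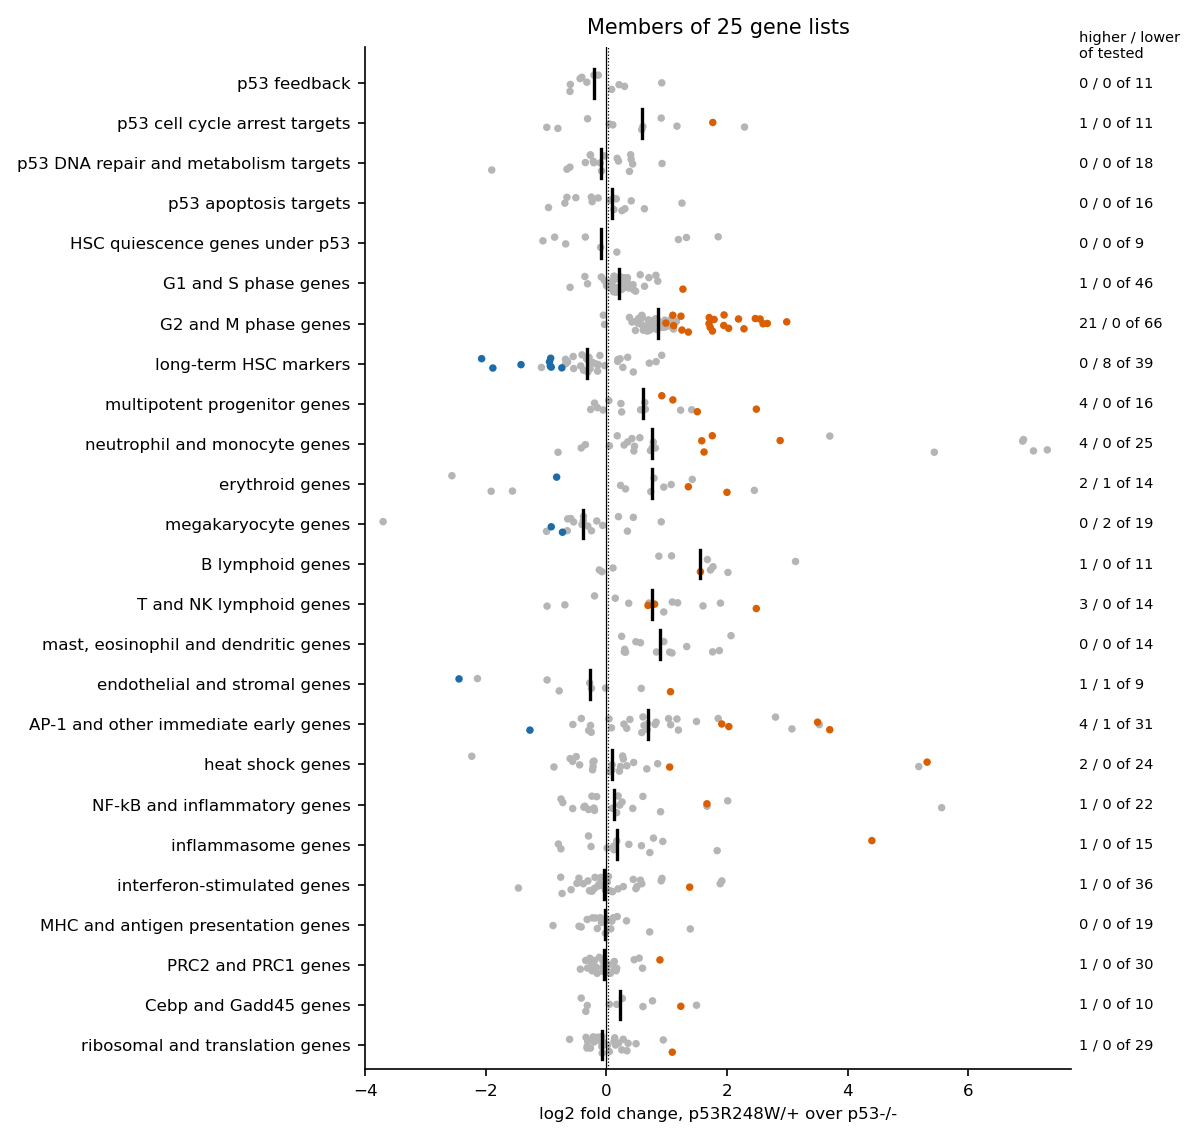
Log2 fold change of p53R248W/+ over p53-/- for each tested member of 25 gene lists, with members called higher in orange, members called lower in blue, the list's median as a black bar, and the median of all genes (0.02) as a dotted line. The numbers at the right give members called higher and lower of those tested, from 21 and 0 of 66 in G2 and M phase to 0 and 8 of 39 in long-term HSC markers.

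Higher calls were more frequent among genes whose transcripts hold the most A. A content, the percent of bases that are A in the longest GENCODE M21 transcript, had a median of 25.3% over all genes, 29.3% over the genes called higher, and 23.9% over those called lower. In the decile of genes with the most A (29.9% to 39.6%), 134 of 1231 (10.9%) were called higher and 7 lower, whereas 156 of the other 11077 placed genes (1.41%) were called higher. The share called higher was 2.92% in the decile below it and between 0.731% and 2.03% in the other 8. The median log2 fold change of that decile was 0.24, with 0.07 for p53R248W/+ over p53+/+ and −0.15 for p53-/- over p53+/+. The G2 and M phase list had a median A content of 27.7%. Of its 25 members in the highest decile 15 were called (60%, median 1.36), and of its 41 other members 6 were called (14.6%, median 0.76), namely Dlgap5, Anln, Kif20a, Kif2c, Knstrn, and Cdca3. With the highest decile left out before fitting, 5 members were called. By gene length, 3.72% of the longest decile and 2.06% of the shortest were called higher, and 0.475% and 0.158% lower. The part of base composition or gene length in the calls was not tested.

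**Figure D4:**
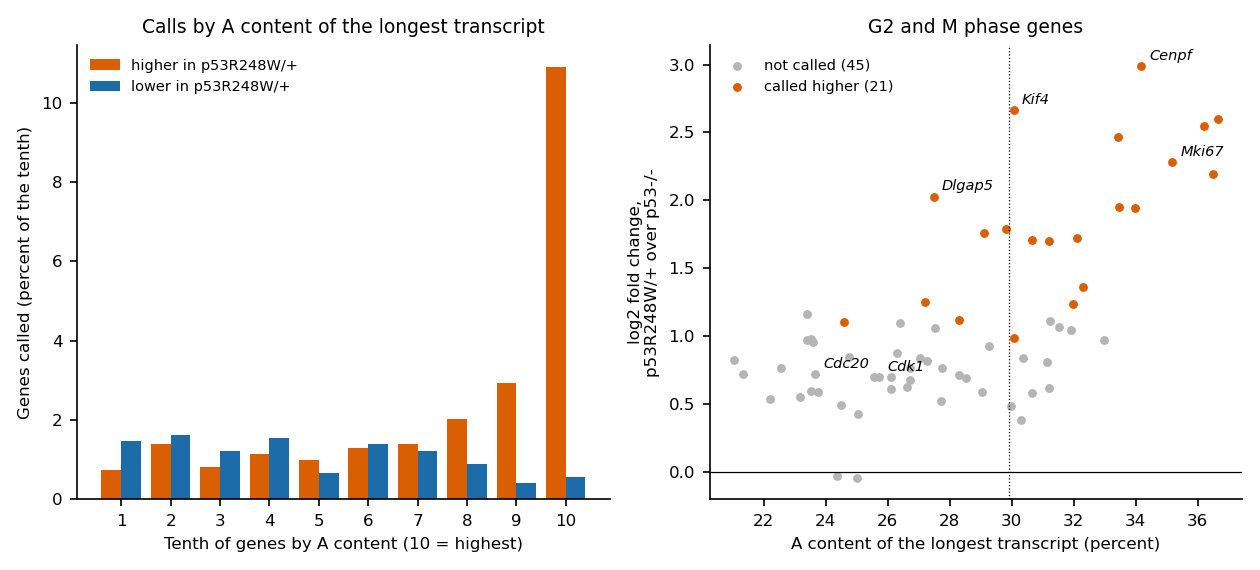
Left, the percent of genes called higher (orange bars) and lower (blue bars) in p53R248W/+ in each decile of genes by A content, which reaches 10.9% for higher calls in the decile with the most A. Right, the log2 fold change of the 66 G2 and M phase genes against A content in percent, with the 21 called genes in orange and a dotted line at the lower end of the highest decile, 29.9%.

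Transcripts that mark long-term HSCs lay on the opposite side. Of 39 tested, 8 (20.5%, against 1.1% of all genes) were called lower in p53R248W/+ and none higher in edgeR's quasi-likelihood test, 30 had a negative value, and the median was −0.33. At an unadjusted p below 0.05 there were 12 lower and 3 higher, and DESeq2 called 9 lower and 0 higher. Hlf, a transcription factor gene of HSCs, had 143, 118, and 163 CPM in p53R248W/+, 351, 362, and 418 in p53-/-, and 205, 192, and 118 in p53+/+ (log2 fold change −1.41 ± 0.22, adjusted p = 0.00885). Its p53R248W/+ and p53-/- ranges were far apart, and it was called in all 9. Meis1, a homeobox gene, had 254, 253, and 311 CPM against 456, 432, and 478 (log2 fold change −0.74 ± 0.17, adjusted p = 0.0366), and Mycn, a Myc-family gene, had 59.8, 78.3, and 75.3 against 129, 149, and 126 (log2 fold change −0.92 ± 0.17, adjusted p = 0.0195). At both Meis1 and Mycn the groups did not overlap, as at every called gene, and p53-/- was the higher one.

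Esam and Tgm2, an adhesion molecule and a transglutaminase, stood at −0.93 and −0.94, and the low-abundance Sult1a1 and Trpc6 at −2.07 and −1.88. Procr, which encodes the HSC surface receptor EPCR, had 35.6, 21.2, and 33.2 CPM against 58.1, 88.3, and 43.5 and missed the threshold (log2 fold change −1.08 ± 0.32, adjusted p = 0.0840). Slamf1, the gene of the HSC marker CD150, lay on the positive side at 0.92 (adjusted p = 0.223), and Mecom stood at −0.68 and Fgd5 at −0.27. The 8 calls became 10 without p53R248W/+ replicate 1, 2 and 1 without p53R248W/+ replicates 2 and 3, and 3, 2, and 1 without p53-/- replicates 1, 2, and 3. In the libraries without Y-linked reads edgeR's quasi-likelihood test called none, while the median of the list there was −0.53; Hlf stood at −1.41 (adjusted p = 0.0926) and Esam at −0.59 (adjusted p = 0.386).

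Megakaryocyte genes held 2 calls of 19 (10.5%, against 1.1% of all genes), both lower, with a median of −0.38. Among them was Nfe2, a transcription factor gene of platelet formation, with 545, 422, and 449 CPM against 730.1, 901, and 714 (log2 fold change −0.73 ± 0.17, adjusted p = 0.0424), called in 1 of the 9. The list held 3 lower calls without p53R248W/+ replicate 1, 1 without any one p53+/+ library, and 0 without p53R248W/+ replicate 2 or 3 or any one p53-/- library. Itga2b, Vwf, and Pf4, which are defining genes of the lineage, stood at 0.45, −0.31, and −0.06, and none was called. Thbs1, at −3.70, was set by 1 library: p53-/- replicate 3 held 304 CPM.

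Multipotent progenitor genes had 4 calls of 16 (25%, against 2.34% of all genes), all higher, and a median of 0.60. The calls were 6 without p53R248W/+ replicate 1 and 2 without p53+/+ replicate 3 or without replicate 2 or 3 of p53R248W/+ or p53-/-. Irf8, a transcription factor of monocytes and dendritic cells, had 298, 365, and 237 CPM against 108, 82.8, and 125 (log2 fold change 1.51 ± 0.21, adjusted p = 0.00445), and Ly86, which encodes a partner of the receptor RP105, had 49.5, 33.2, and 19.9 against 5.39, 6.64, and 6.29 (log2 fold change 2.49 ± 0.32, adjusted p = 0.00326). Both were called in all 9, and in the libraries without Y-linked reads they stood at 1.49 and 3.00 (adjusted p = 0.0283 and 0.00161). Dntt, the terminal transferase of lymphoid progenitors, had 1669.7, 1325, and 1466 CPM against 785, 691, and 885 (log2 fold change 0.92 ± 0.22, adjusted p = 0.0466). Dntt was called in 3 of the 9. The groups did not overlap at any of these genes, as at every called gene, and p53R248W/+ was the higher one. Flt3, which marks multipotent progenitors, had 614, 859, and 1079 CPM against 631, 783, and 727, so the ranges overlapped (log2 fold change 0.25 ± 0.20, adjusted p = 0.520), and Cd48 stood at 0.65 (adjusted p = 0.116).

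Neutrophil and monocyte genes had 4 calls of 25 (16%, against 2.34% of all genes), all higher, and a median of 0.76. The calls were 7 without p53+/+ replicate 2 or p53R248W/+ replicate 1, and 2 without p53-/- replicate 1 or 3. Mpo, the myeloperoxidase of early granulocytic cells, had 3669.7, 5776, and 3213 CPM in p53R248W/+, 1456, 1169, and 1125 in p53-/-, and 1712, 3087, and 2611 in p53+/+ (log2 fold change 1.76 ± 0.26, adjusted p = 0.00778). F13a1, a transglutaminase gene of monocytes, had 46.7, 95.5, and 26.0 against 6.75, 6.05, and 10.02 (log2 fold change 2.88 ± 0.42, adjusted p = 0.00662). Ctsg, a granule protease, and Ms4a6c stood at 1.58 ± 0.32 (adjusted p = 0.0281) and 1.62 ± 0.27 (adjusted p = 0.0126). Replicate 2 was the highest p53R248W/+ library at Mpo and F13a1, and without it they stood at 1.46 (adjusted p = 0.0248) and 2.26 (adjusted p = 0.01). Without it Ms4a6c stood at 1.63 (adjusted p = 0.0408) and Ctsg was no longer called (1.5, adjusted p = 0.0916).

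Genes of later granulocytic cells had larger values and were not called, and replicate 2 of p53R248W/+ held most of their transcript. Ngp had 22.3, 584, and 9.51 CPM in p53R248W/+ and 1.63, 2.39, and 1.08 in p53-/- (log2 fold change 6.90 ± 2.12, adjusted p = 0.0915). Ltf, the lactoferrin gene, had 5.32, 312, and 4.39 against 0.707, 0.949, and 0.687, and Camp, the cathelicidin gene, had 11.7, 201, and 7.50 against 0.435, 0.949, and 0.393. S100a8, a calprotectin subunit, had 44.3, 548, and 14.6 against 8.70, 33.1, and 4.62, so that the groups overlapped. The 25 genes summed to 6205, 10664, and 4916 CPM in p53R248W/+ and to 2806, 2983, and 2602 CPM in p53-/-, and p53+/+ replicate 2 also stood high at 9166 against 3400 and 4685 in the other p53+/+ libraries.

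**Figure D5:**
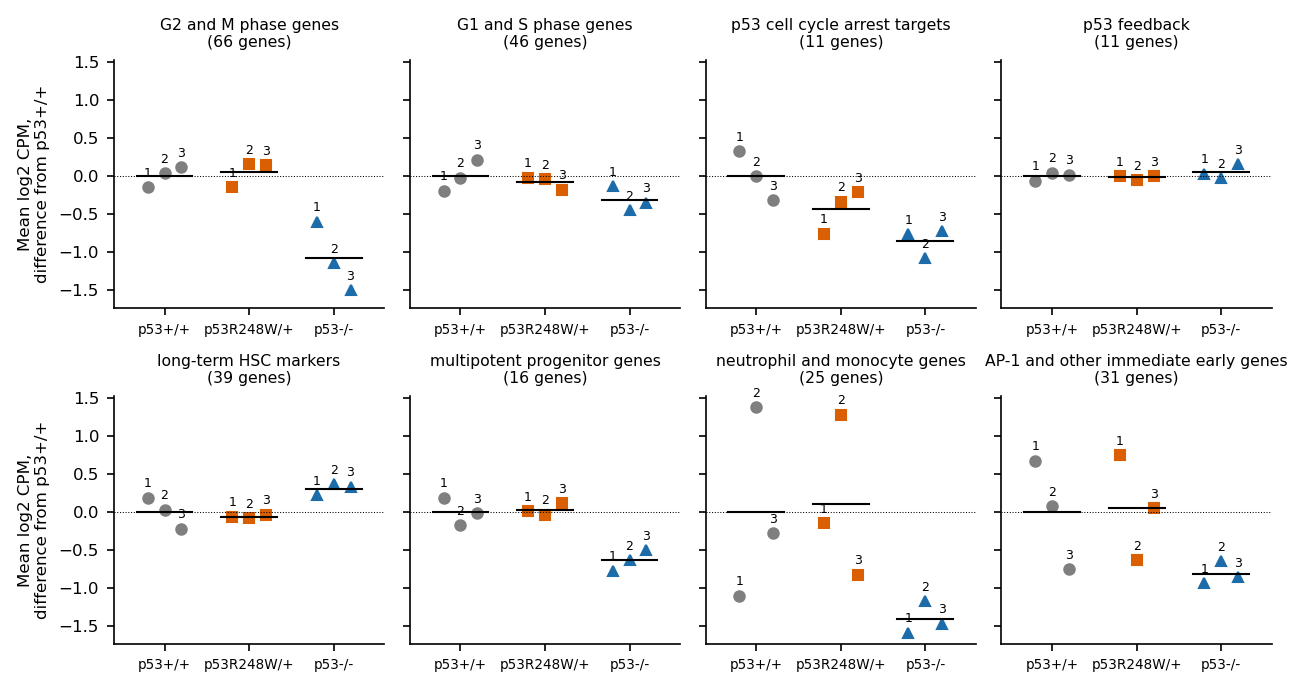
Mean log2 CPM over the members of 8 gene lists in each library, as the difference from the p53+/+ mean, for p53+/+ (gray circles), p53R248W/+ (orange squares), and p53-/- (blue triangles), with replicate numbers and group means as bars. The p53-/- libraries lie below the others in G2 and M phase and multipotent progenitor genes and above the p53R248W/+ libraries in long-term HSC markers, and replicate 2 of p53R248W/+ and p53+/+ stands highest in neutrophil and monocyte genes.

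Erythroid genes went both ways. Tfrc, the transferrin receptor that brings iron into cells, had 30.8, 43.1, and 33.6 CPM against 11.6, 6.69, and 8.59 (log2 fold change 2.00 ± 0.25, adjusted p = 0.00302) and was called in all 9, and Mfsd2b, an exporter of sphingosine-1-phosphate, stood at 1.36 ± 0.28 (adjusted p = 0.0283). Car2, a carbonic anhydrase gene, was lower, with 832, 681, and 909 CPM against 1268, 1572, and 1449 (log2 fold change −0.82 ± 0.17, adjusted p = 0.0309). These were the 3 calls of 14 (21.4%, against 3.44% of all genes), of which none was made in the libraries without Y-linked reads. The median was 0.76, and −0.027 in those libraries. The summed level lay the other way, at 903 to 1024 CPM in p53R248W/+ and 1334 to 1684 in p53-/-, with no overlap. Most of that sum was Car2 in each of these libraries, so it largely repeats the Car2 values. Of the 14 members, 10 had a positive and 4 a negative log2 fold change. Car2 was called in 4 and Mfsd2b in 5 of the 9; the erythroid factors Gata1 and Klf1 stood at 0.95 and 0.32 without being called.

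Of the lymphoid lists, 1 of 11 B (9.09%) and 3 of 14 T and NK genes (21.4%, against 2.34% of all genes) were called, all higher, with medians of 1.56 and 0.75. Blnk, an adaptor of B cell receptor signaling, had 23.8, 22.7, and 21 CPM against 6.26, 6.05, and 10.6 (log2 fold change 1.56 ± 0.29, adjusted p = 0.0203), called in 5 of the 9. Tcf7, a transcription factor of early T cell development, had 10.9, 14.7, and 11.1 against 1.41, 1.40, and 3.73 (log2 fold change 2.48 ± 0.40, adjusted p = 0.00970) and was called in all 9. The kinase gene Lck and the granule gene Nkg7 stood at 0.80 and 0.69, and they were called in 3 and 0 of the 9. The T and NK calls were 2 without p53+/+ replicate 1 or 2 or p53R248W/+ replicate 1, and 1 without any other library. The summed level of the T and NK list was 470 to 579 CPM in p53R248W/+ and 286 to 365 CPM in p53-/-, while that of the B list was 281 to 297 against 218 to 266.

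None of the 14 mast cell, eosinophil, and dendritic genes was called by edgeR's quasi-likelihood test, against 3.44% of all genes. All 14 were positive and the median was 0.89. At an unadjusted p below 0.05 there were 3, and DESeq2 called 1. Tpsb2, a mast cell tryptase gene outside this list, was called lower (log2 fold change −5.30). The eosinophil granule genes Prg2 and Epx had 19.1, 289.5, and 1.83 CPM and 0.0359, 58.2, and 0 CPM in p53R248W/+, against 1.80, 142, and 1.67 and 0, 13.1, and 0.540 in p53-/-, so that replicate 2 of each genotype held most of the transcript. Of 9 endothelial and stromal genes 2 were called (22.2%, against 3.44% of all genes): Pecam1, which is also present on HSCs, was higher (log2 fold change 1.06 ± 0.25, adjusted p = 0.0415, and 0.58 in the libraries without Y-linked reads) and Col1a2, a collagen chain, lower (log2 fold change −2.44 ± 0.50, adjusted p = 0.0281), at 1.40, 1.59, and 0.823 CPM against 7.29, 2.94, and 10.6.

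Immediate early genes held 5 calls of 31 (16.1%, against 3.44% of all genes), 4 higher and 1 lower. The 4 higher calls became 6 without p53R248W/+ replicate 2, 2 without replicate 3, 1 without p53-/- replicate 1 or 2, and 0 without p53-/- replicate 3. The lower call was lost without p53R248W/+ replicate 2 or 3 or any one p53-/- library. Fos, a subunit of AP-1, had 2118, 288, and 1060.0 CPM in p53R248W/+, 98.0, 91.7, and 76.7 in p53-/-, and 1267, 1043, and 259 in p53+/+ (log2 fold change 3.70 ± 0.67, adjusted p = 0.0186). Jun, its partner, had 717, 496, and 1131 against 200.1, 257, and 166 (log2 fold change 1.91 ± 0.31, adjusted p = 0.0106), and Klf2, a Krüppel-like factor, had 190.3, 24.6, and 71.7 against 10.2, 7.86, and 7.27 (log2 fold change 3.50 ± 0.70, adjusted p = 0.0253). Zfp36, whose protein shortens the life of AU-rich mRNAs, had 902, 262, and 527 against 118, 131, and 164 (log2 fold change 2.03 ± 0.47, adjusted p = 0.0410), called in 4 of the 9. The p53R248W/+ libraries differed widely among themselves at Fos, with replicate 1 highest and replicate 2 lowest, and the p53-/- libraries were close together. Without each library in turn Fos ran from 2.89 to 4.16 and Klf2 from 2.48 to 3.96, and they were called in 6 and 5 of the 9. Dusp1, an early phosphatase, was just short of the threshold (log2 fold change 2.80 ± 0.72, adjusted p = 0.0553). Dusp6, the phosphatase that damps ERK signaling, was the call in the other direction, with 80.3, 66.1, and 71.5 CPM against 168, 194, and 162 (log2 fold change −1.27 ± 0.24, adjusted p = 0.0224). The list's median was 0.68, and its summed level was 9917, 3316, and 6210 CPM in p53R248W/+ against 3019, 3342, and 2668 in p53-/-, so replicate 2 overlapped p53-/-.

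Heat shock genes held 2 calls of 24 (8.33%, against 3.44% of all genes), with a median of 0.09. They held 4 higher calls without p53+/+ replicate 1 and 4 higher and 4 lower without p53R248W/+ replicate 1, but 1 higher without p53+/+ replicate 2 or 3 and 0 without p53R248W/+ replicate 2 or 3 or any one p53-/- library. Hspa1a, the inducible Hsp70 gene, had 4.60, 17.6, and 82.1 CPM against 0.707, 0.994, and 0.884 (log2 fold change 5.32 ± 1.29, adjusted p = 0.0457); it was called in 2 of the 9, and its value without each library ran from 3.67 to 5.81. In the libraries without Y-linked reads it was 2.39 (adjusted p = 0.355), and with the Y-linked covariate 3.62 (adjusted p = 0.239). Hsp90aa1, the inducible cytosolic Hsp90, had 695, 734, and 629 against 331, 388, and 276 (log2 fold change 1.05 ± 0.21, adjusted p = 0.0264), called in 4 of the 9.

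Immune signaling lists held single calls, against 3.44% of all genes called. Nlrp1a, an inflammasome sensor gene on chromosome 11, 71092236 to 71144704, had 4.31, 7.99, and 8.0 CPM in p53R248W/+, 0.381, 0.226, and 0.344 in p53-/-, and 0.504, 8.82, and 17.6 in p53+/+ (log2 fold change 4.40 ± 0.96, adjusted p = 0.0326), and was the 1 call of 15 inflammasome genes (6.67%). Replicate 1 of p53+/+ lay close to the p53-/- libraries, and its other two lay above the p53R248W/+ libraries. Ccl3, a chemokine gene, was the 1 call of 22 NF-kB and inflammatory genes (4.55%), with a log2 fold change of 1.67 ± 0.35 (adjusted p = 0.0283), and Gbp7, a guanylate-binding protein gene, the 1 of 36 interferon-stimulated genes (2.78%), with 1.38 ± 0.27 (adjusted p = 0.0232). Nlrp1a, Ccl3, and Gbp7 were each called in 4 of the 9, and in the libraries without Y-linked reads they stood at 3.74, 1.52, and 0.68 (adjusted p = 0.184, 0.175, and 0.264). None of 19 MHC and antigen presentation genes was called by edgeR's quasi-likelihood test or DESeq2, and 2 had an unadjusted p below 0.05. The medians of these lists lay between −0.03 and 0.17, near that of all genes.

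Ezh2, the H3K27 methyltransferase that the study follows, was higher in p53R248W/+. It had 119.5, 130.4, and 129 CPM against 76.4, 68.0, and 60.4, with 98.5, 111, and 134 in p53+/+, so the p53-/- libraries lay below both other groups (log2 fold change 0.89 ± 0.17, adjusted p = 0.0224). It was called in 5 of the 9 and stood at 0.79 in the libraries without Y-linked reads (adjusted p = 0.212). It was the 1 call of 30 PRC2 and PRC1 genes (3.33%, near the 3.44% of all genes), whose median was −0.05. Of the 2 downstream genes that the study follows, Cebpa stood at −0.42 ± 0.25 (adjusted p = 0.382) with 23.8, 37.3, and 27 CPM against 34.6, 30.9, and 52.1, and Gadd45g at 1.49 ± 0.49 (adjusted p = 0.110) with 4.46, 3.80, and 2.19 against 0.544, 1.72, and 1.42. Cebpz, a ribosome biogenesis factor that shares the Cebp symbol, was the 1 call among 10 Cebp and Gadd45 genes (log2 fold change 1.23 ± 0.23, adjusted p = 0.0197, and 0.79 in the libraries without Y-linked reads), and Nop58, a nucleolar protein of box C/D RNPs, the 1 among 29 ribosomal and translation genes (3.45%), with a log2 fold change of 1.09 ± 0.16 (adjusted p = 0.00681).

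Among genes of at least 1 log2 CPM on average, the higher calls with the largest log2 fold changes were a pair of noncoding transcripts outside these lists. 2610507I01Rik, on chromosome 11, 59199836 to 59202385, had 846, 719, and 717 counts in p53R248W/+, 3, 2, and 8 in p53-/-, and 483, 639, and 522 in p53+/+ (log2 fold change 7.21 ± 0.38, adjusted p = 4.28e-06). AA465934, on chromosome 11, 83291699 to 83294632, had 1054, 868, and 660 counts in p53R248W/+, 3, 6, and 9 in p53-/-, and 3, 11, and 17 in p53+/+ (log2 fold change 6.93 ± 0.53, adjusted p = 1.25e-04). The first was near absent from p53-/- alone, and the second was high in p53R248W/+ alone, with a log2 fold change of 6.06 over p53+/+ (adjusted p = 5.64e-04), the 1 call of that comparison. Bzrap1 had 6.32, 12.3, and 14.9 CPM against 0.435, 0.858, and 1.13 (log2 fold change 3.77 ± 0.45, adjusted p = 0.00252). All 3 were called in all 9. Both noncoding transcripts are on chromosome 11, which also carries Trp53, where 41 of 1035 genes (3.96%) were called; within 20 Mb of Trp53 it was 18 of 459 (3.92%), and on the rest of the chromosome 23 of 576 (3.99%). Among the largest differences, 4 of the 12 higher calls lie within 20 Mb of Trp53: 2610507I01Rik, AA465934, Nlrp1a, and Hist3h2ba. Of the 12 largest lower calls, 2 (Trim58 and Trim16) lie there. That stretch holds 459 of the 12625 genes tested, so its share of the largest calls was above its share of genes. The part of position near Trp53 in these values was not tested.

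The H2B histone genes Hist3h2ba and Hist1h2bp were also among the 12 largest higher calls. Hist3h2ba had 3.38, 2.46, and 3.89 CPM against 0.272, 0.768, and 0.246 (log2 fold change 2.89 ± 0.56, adjusted p = 0.0234), and Hist1h2bp had 4.96, 2.41, and 2.06 against 0.435, 0.632, and 0.344 (log2 fold change 2.72 ± 0.53, adjusted p = 0.0234). Histone genes have near-identical copies, and how their shared reads were assigned is not given in the sources used here, so these values are uncertain.

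Of the 12 largest lower calls, 3 were called in all 9. Trib2, a pseudokinase gene that drives leukemia in mice when overexpressed, had 7.12, 10.4, and 5.49 CPM in p53R248W/+, 36.9, 37.4, and 44.4 in p53-/-, and 10.03, 7.97, and 7.25 in p53+/+ (log2 fold change −2.37 ± 0.27, adjusted p = 0.00242), and in the libraries without Y-linked reads it stood at −2.49 (adjusted p = 0.0201). Trim58, an E3 ligase gene of late erythroid cells, had 4.60, 7.99, and 7.31 against 26.1, 21.5, and 24.0 (log2 fold change −1.85 ± 0.28, adjusted p = 0.00831). Slc16a12, a transporter gene, had 8.34, 3.71, and 2.79 against 42.9, 20.7, and 80.4 (log2 fold change −3.27 ± 0.51, adjusted p = 0.00885). At Trib2 and Trim58 the p53-/- libraries were close together, and at Slc16a12 they were spread.

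The other large lower calls were each called in fewer than 9 of the fits that left out a library. Upp1, uridine phosphorylase, had 9.95, 5.10, and 9.55 CPM against 33.3, 47.3, and 22 (log2 fold change −2.06 ± 0.40, adjusted p = 0.0231), and Trim16, an E3 ligase gene, had 42.7, 40.6, and 44.7 against 192, 111, and 157, with 145, 123, and 48.0 in p53+/+ (log2 fold change −1.84 ± 0.34, adjusted p = 0.0203). At Trim16 the p53R248W/+ libraries also lay below all p53+/+ libraries, with a log2 fold change of −1.31 that was not called (adjusted p = 1.000). Tpsb2, a mast cell tryptase, had 0.359, 0.0481, and 0.183 CPM against 5.11, 11.4, and 8.45 (log2 fold change −5.30 ± 1.09, adjusted p = 0.0281), and Bace2, an aspartic protease gene, had 0.395, 0.578, and 0 against 6.15, 1.45, and 21.3 (log2 fold change −4.86 ± 1.20, adjusted p = 0.0489). At both, p53R248W/+ stayed below 1 CPM, and at Bace2 the p53-/- libraries were far apart. Bhlha15 and Lurap1 stood at −2.12 and −1.93, and each was called in 2 of the 9; Bhlha15 was −3.18 in the libraries without Y-linked reads.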

How the data were processed

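RNA from LSKs (Lin-Sca1+Kit+ bone marrow cells) of 3 p53+/+, 3 p53R248W/+, and 3 p53-/- libraries was sequenced after amplification with a SMART-Seq v4 kit, per the labels. The submitters' processing notes name STAR 2.5.2b, Subread 1.5.0, featureCounts, edgeR, and mm10. The deposited table holds raw read counts, whole numbers without normalization, for 12647 genes. No gene in it has under 37 counts in all, so a filter had been applied before deposit. The gene lengths deposited by the authors served to group genes into deciles and did not enter the fit. The 9 columns of the authors' own comparisons, which hold fold changes with their p-values, were not used. The 2 H3K27me3 ChIP-seq samples were not used here.

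The test was edgeR's quasi-likelihood test (edgeR 4.0.16 under R 4.3.3), with filterByExpr by genotype, which 22 genes failed, TMM factors, and 1 fit to the 9 libraries (biological coefficient of variation 0.281). Benjamini-Hochberg adjustment was over all 12625 tested. Total counts ran from 18021375 to 29750702, so depth limits mainly genes of few counts. CPM are on TMM-scaled library sizes. The alternatives were other scaling factors and filters, DESeq2 1.42.0, voom in limma 3.58.1, a fit to 6 libraries, a replicate block, the Y-linked level as a covariate, and each library left out; 3 more were chosen after seeing the data.

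Positions in GRCm38 came from GENCODE M21, through the gene number for 11945 genes and the symbol for 385 (97.5%), with 317 unplaced. RefSeq promoter windows were found for 9942 of the genes tested.

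The members and the 26 gene lists were chosen with earlier results of these data known. Named genes were Trp53, the 12 genes in each direction with the largest difference among those called, with no overlap between the genotypes and an average of at least 1 log2 CPM, the list members called, all p53 targets, and Ezh2, Cebpa, and Gadd45g; of the other lists, members not called are given with their values. A few list members are not reported here. No 2 libraries agreed within sampling noise.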

Additional observations from a re-analysis of the deposited data

How the results depend on the processing

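All 434 calls kept their direction in each of the 20 alternatives in which they were tested. With DESeq2's tests the calls were 1325 (741 higher, 584 lower, and 244 higher in the decile of genes with the most A, against 134). In the fit to 6 libraries they were 208 (150, 58, and 70 in that order), with a covariate for the Y-linked level 162 (106, 56, and 26), and in the libraries without Y-linked reads, chosen after seeing the data, 46 (38, 8, and 6). Without the decile of genes with the most A, also chosen after seeing the data, they were 166 (98 higher, 68 lower). At an adjusted p below 0.01 they were 61 (51 and 10), and at 2-fold or more the lower genes were 76. With a replicate block they were 672 (450 higher, 222 lower), but the deviations of same-numbered p53R248W/+ and p53-/- libraries correlated at 0.07, −0.11, and 0.13, and the labels name no shared batch, so the numbers were not taken as pairs. Same-numbered p53+/+ and p53R248W/+ libraries correlated at 0.361, 0.543, and 0.0388. Each of these 6 correlated best with its own number in the other genotype. Their sample titles also hold names of matching style, number by number, whereas the p53-/- titles use another style. The labels state no pairing, so this is a hint and not a stated design. The calls between p53R248W/+ and p53+/+ went from 1 to 2 with that block, which was chosen after seeing the data.

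Leaving out each library in turn gave 77 to 1559 calls, 68 to 904 higher, 8 to 655 lower, and 19 to 264 higher in the decile with the most A. List medians then ran from −0.41 to −0.13 for p53 feedback, 0.16 to 0.73 for arrest targets, −0.044 to 0.12 for apoptosis targets, −0.40 to −0.23 for long-term HSC markers, 0.44 to 0.76 for multipotent progenitor genes, −0.56 to −0.31 for megakaryocyte, 0.86 to 1.56 for B, 0.72 to 1.00 for T and NK, −0.65 to −0.21 for endothelial and stromal, and −0.082 to 0.32 for inflammasome genes. With the Y-linked covariate the medians were 0.15 (arrest), −0.070 (apoptosis), −0.60 (long-term HSC), 0.42 (multipotent progenitor), 0.72 (B), 0.42 (inflammasome), and 0.30 (ribosomal). In the libraries without Y-linked reads they were 0.12 (arrest), −0.023 (apoptosis), −0.53 (long-term HSC), 0.39 (multipotent progenitor), −0.027 (erythroid), 1.01 (B), −0.50 (endothelial and stromal), 1.47 (immediate early), and 0.29 (ribosomal). p53 feedback was −0.13 with voom and −0.13 with the replicate block, and without the decile with the most A multipotent progenitor genes were 0.40 and endothelial and stromal genes −0.52. The causes of these differences were not tested. Over refits of the named genes, 1137 stayed on their side of the threshold, 409 lost a call, 5 gained one, and none changed sign. Over all alternatives the adjusted p ran from 1.57e-06 to 0.0592 for Cdkn1a, 6.67e-06 to 0.484 for Mki67, 5.41e-15 to 0.0293 for Smc4, 6.40e-16 to 0.0300 for Kif4, 7.39e-08 to 0.0926 for Hlf, 4.32e-10 to 0.0283 for Irf8, 1.90e-11 to 0.0256 for Ly86, 9.06e-05 to 0.212 for Ezh2, and 2.64e-15 to 0.0201 for Trib2.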

Other observations

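Further gene groups were assembled after the values were seen, so they are given as descriptions with no test of the group. Of 32 homologous recombination and Fanconi genes, 5 (15.6%, against 2.34% of all genes) were called higher in p53R248W/+ and none lower, with a median of 0.43: Rad50 (log2 fold change 1.62, with 40.8, 96.6, and 106 CPM against 19.3, 29.3, and 30.9), Brca1 (log2 fold change 1.39, with 30.5, 28.9, and 31.6 CPM against 16.9, 6.46, and 11.5), Brca2 (log2 fold change 2.08), Rad51ap1 (log2 fold change 1.00), and Blm (log2 fold change 1.16). These were called in 4, 3, 5, 2, and 6 of the 9 fits that left out a library, in that order. Of 15 condensin and cohesin genes, Smc2, Smc3 (log2 fold change 1.16), Smc4, and Smc6 (log2 fold change 1.20) were called higher (26.7%), and the median was 0.62 with a median A content of 31.2%, against 25.3% over all genes. Of 15 H2B histone genes, 7 (46.7%) were called higher and the median was 1.51, while of 12 H2A histone genes none was called by edgeR's quasi-likelihood test, 8 had an unadjusted p below 0.05, and the median was 1.18.

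Other groups held lower calls. Of 10 ERK feedback genes, 3 (30%, against 1.1% of all genes) were called lower and the median was −0.83: Dusp6 (log2 fold change −1.27), Spred2 (log2 fold change −1.03, with 5.86, 8.67, and 9.60 CPM against 16.5, 17.3, and 15.6), and Etv5 (log2 fold change −1.20, with 17.9, 26.5, and 30.9 CPM against 51.2, 59.5, and 62.1). They were called in 4, 1, and 6 of the 9 fits that left out a library. Of 28 genes of the unfolded protein response, 5 were called (17.9%, against 3.44% of all genes): 4 were called lower, among them the transcription factor Xbp1 (log2 fold change −0.84, with 243, 157, and 148 CPM against 344, 328, and 311), and Atf4 was called higher (log2 fold change 1.33), with a median of 0.05. Of 35 Kbtbd and Klhl genes, which encode adaptors of cullin ubiquitin ligases, 5 were called lower and 1 higher (17.1% in all), with a median of −0.34. Of the chromosomes, chromosome 13 had the largest share of called genes, 29 of 482 (6.02%, against 3.44% of all genes).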
